A study of Mus musculus with 10 samples.

Results

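The lung epithelium is built and maintained by a small set of transcription factors, and 10 of them were followed here in whole lungs of neonatal mice with increased pulmonary blood flow (IncPBF). The 10 genes were Nkx2-1, Foxa1, Foxa2, Gata6, Sox2, Sox9, Etv5, Cebpa, Cebpd and Klf5. They were chosen by name from the 54532 genes of the deposited table, and all 10 were among the 15388 genes tested. The C57/BL6 pups were wild type, and the methods allow either sex. At postnatal day 7 (P7), IncPBF pups received a fistula between the abdominal aorta and the inferior vena cava, made with a needle puncture, and sham pups had their abdomen opened and closed with the vessels left intact. Lungs were taken at P14, 5 per group, and RNA was sequenced from the whole organ. The labels give no sex, litter or batch, and they number the lungs without saying whether each came from a different litter.

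NKX2-1 is the homeodomain factor that defines lung epithelial identity, and it is also made in the thyroid. FOXA1 and FOXA2 are forkhead pioneer factors that open chromatin in gut- and lung-derived epithelium, and GATA6, a zinc-finger factor, acts with them and with NKX2-1 at surfactant genes. C/EBPα is needed for alveolar epithelial maturation, C/EBPδ is its stress- and glucocorticoid-inducible relative, and KLF5 acts in alveolar and airway epithelium. ETV5 is an ETS factor downstream of FGF signaling that maintains alveolar type 2 (AT2) cells. SOX2 marks the conducting airway lineage, and SOX9 marks the distal tips of the branching embryonic lung. Several of these factors are also made outside the epithelium, for example C/EBPα and C/EBPδ in macrophages and fibroblasts, and GATA6 in mesothelium, smooth muscle and macrophages.

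The values are FPKM, fragment counts scaled to gene length and to the depth of the lung, so levels of different genes can be compared per length. Fragments on genes ranged from 16103423 to 20318525 in IncPBF lungs and from 18171494 to 19400575 in sham lungs. Xist, the RNA of the inactive X chromosome of female cells, was 52.4 to 66.5 FPKM in IncPBF lungs 2 to 5, but 0.0144 in IncPBF lung 1 and no higher than 0.0770 in any sham lung. Ddx3y, which lies on the Y chromosome, showed the reverse, at 18.6 FPKM in IncPBF lung 1, at most 0.00926 in IncPBF lungs 2 to 5 and 21.8 to 24.6 in sham lungs. Sex-linked expression and surgery therefore cannot be told apart in IncPBF lungs 2 to 5, and values are also given below for IncPBF lung 1 alone. Sham lung 5 stood apart by its airway genes, whose summed level was 361.79 FPKM against 5605 to 12828 in the other sham lungs and 5163 to 10871 in IncPBF lungs. It was also outside the other sham lungs in the summed level of smooth muscle (139 against 186 to 275), cardiac (11.0 against 29.7 to 48.6), mesothelial (219 against 139 to 179) and pan-epithelial genes (378 against 412 to 443). By a smaller margin it was above them for AT1 genes (3672 against 2724 to 3584), glucocorticoid and stress genes (719 against 533 to 712) and endothelial genes (1631 against 1274 to 1625). Defining thyroid genes were near 0, with a summed level of 0.153 to 0.403 FPKM in IncPBF lungs and 0.176 to 0.384 in sham lungs, while the genes of all epithelial cells summed to 379 to 432 and 378 to 443 FPKM.

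Of the 10 factors, 4 fell (Foxa2, Gata6, Cebpa and Cebpd), 1 rose (Sox9) and 5 did not pass the test (limma on log2(FPKM + 0.1), Benjamini-Hochberg adjusted p under 0.05 over all genes tested). Among all genes tested, 16.2% fell and 16.1% rose. These counts hold under the deposited scaling, whose divisor was 1.02 to 1.07 times the fragments on genes in IncPBF lungs and 0.958 to 1.03 times in sham lungs. With equal totals per lung, 1782 genes fell and 3559 rose against 2490 and 2480, and 2 of the 10 factors, Cebpa and Cebpd, fell. The 2 groups of lungs did not overlap, with IncPBF lower, for 4 factors (Foxa2, Cebpa, Cebpd and Klf5), against 11.2% of all genes tested. None of the 10 was without overlap and higher in IncPBF, against 12.0% of all genes tested. The median log2 fold change of the 10 factors was -0.10, against 0.01 over all genes tested. Of the 936 tested genes that the deposited table annotates as transcription factors, 148 fell and 143 rose, with a median of -0.03. Cebpd has no such annotation and is not among the 936. In bulk lung, fewer cells of a type and less RNA per cell cannot be told apart. IncPBF lung 1 lay below every sham lung for Foxa2, Gata6, Cebpa, Cebpd and Klf5, above every sham lung for Sox9, and within the sham range for Nkx2-1, Foxa1, Sox2 and Etv5. The share of all genes tested for which this lung lay outside the sham range is not given here, so these positions only describe 1 lung. With log2 Xist as a covariate, Cebpd had a log2 fold change of -0.95. Xist was near 0 in IncPBF lung 1 and in every sham lung. That fit therefore rests almost wholly on IncPBF lung 1 against the sham lungs. A call kept or lost in it speaks for little more than that lung. The log2 fold changes of the calls that were lost were then -0.27 for Foxa2, -0.32 for Gata6, -0.31 for Cebpa and 0.59 for Sox9.

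**Figure D1:**
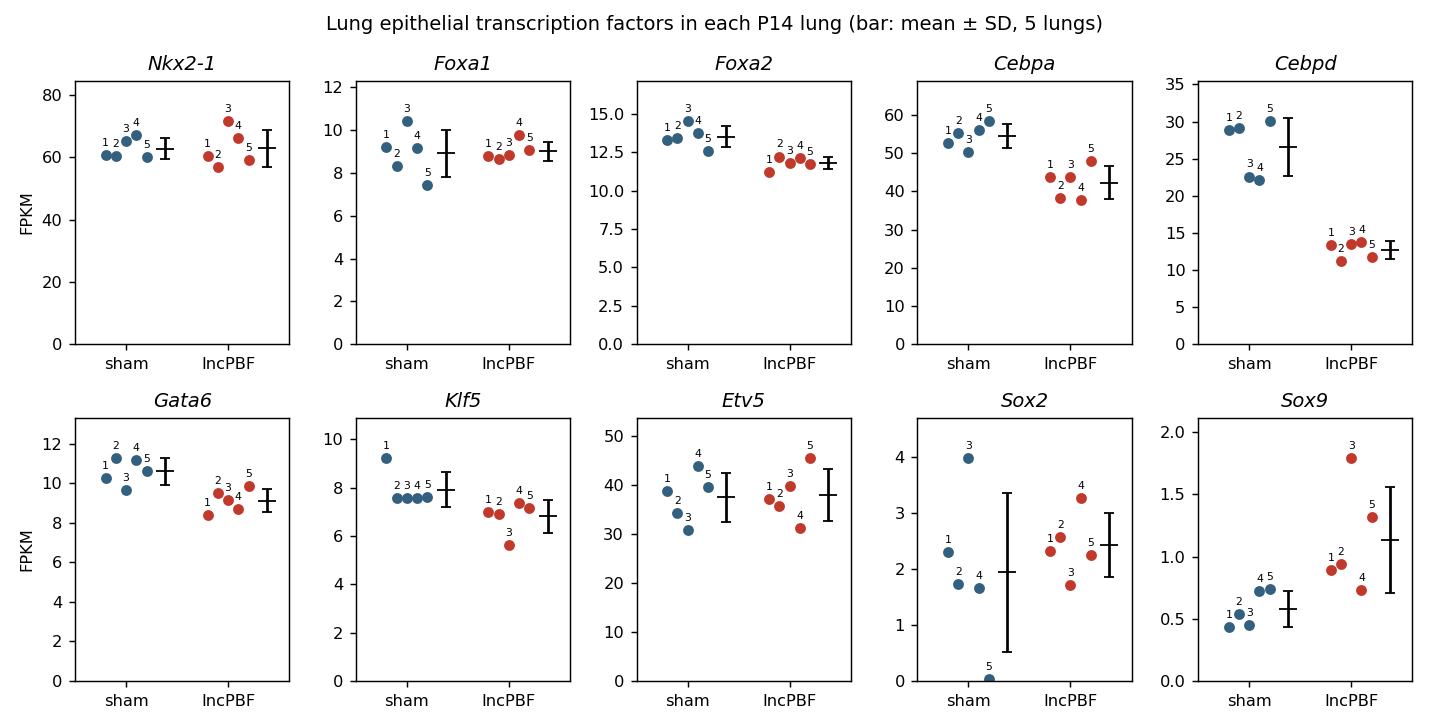
FPKM of the 10 transcription factors in each P14 lung, with sham in blue and IncPBF in red, the lung's number beside its point, and the mean and SD of 5 lungs at the side. All IncPBF points lie below all sham points for Foxa2, Cebpa, Cebpd and Klf5, while the points of Nkx2-1, Foxa1 and Etv5 mix.

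**Figure D2:**
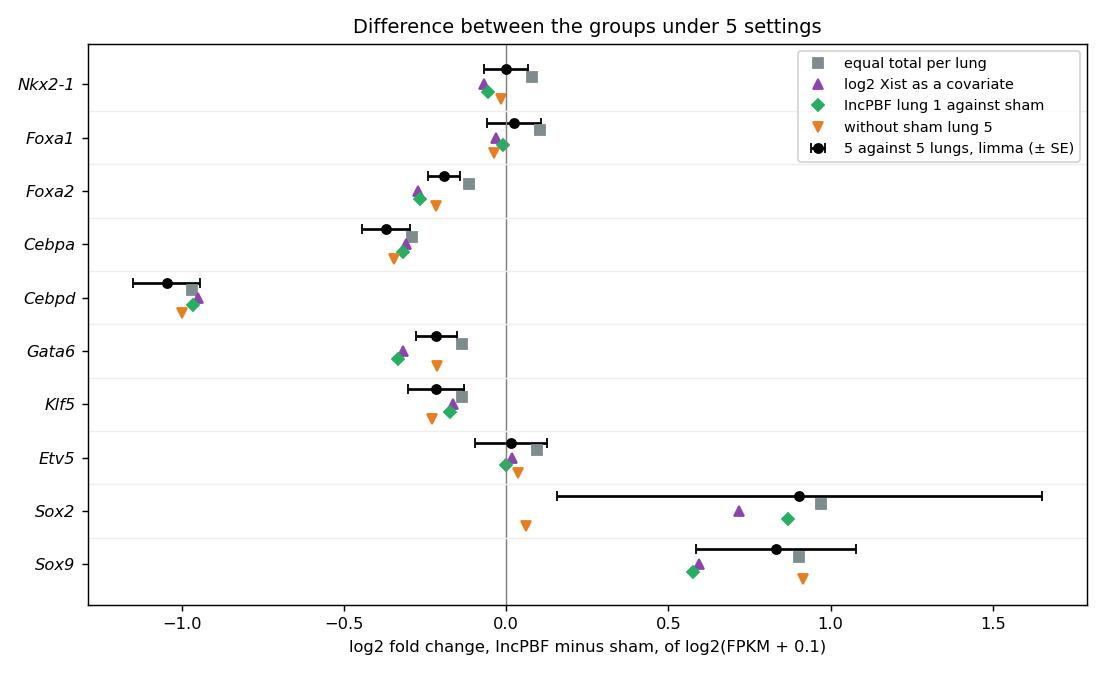
Log2 fold change, IncPBF minus sham, of the 10 factors on the log2(FPKM + 0.1) scale for 5 against 5 lungs (black, with its SE) and under 4 other settings (colored). Cebpd sits between -1.05 and -0.95 under all 5 settings, while Sox2 moves from 0.90 to 0.06 without sham lung 5. The settings with log2 Xist as a covariate and with IncPBF lung 1 alone both rest on that lung.

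In sham lungs, Nkx2-1 stood highest at 62.8 ± 3.31 FPKM (SD, n = 5), followed by Cebpa at 54.6 ± 3.19, Etv5 at 37.5 ± 5.04, and Cebpd at 26.6 ± 3.86. Foxa2 (13.5 ± 0.697), Gata6 (10.6 ± 0.665), Foxa1 (8.90 ± 1.11) and Klf5 (7.92 ± 0.736) made up a middle range, and Sox2 (1.94 ± 1.42) and Sox9 (0.575 ± 0.146) were lowest. Neighbours in this order whose sham lungs overlapped were Gata6 with Foxa1, Foxa1 with Klf5, and Sox2 with Sox9. In IncPBF lungs the ranges of Cebpd (12.7 ± 1.19) and Foxa2 (11.8 ± 0.404) overlapped, as did those of Cebpa (42.3 ± 4.27) and Etv5 (37.9 ± 5.31). Among the 936 tested genes annotated as transcription factors, Nkx2-1 ranked 15, Cebpa 31 and Etv5 41 by mean level, and Sox9 ranked 881. Cebpd, without that annotation, has no rank.

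Nkx2-1 (ENSMUSG00000001496, chr12:56531958-56536908, minus strand, GRCm38) was the factor with the smallest difference between the groups. Its FPKM was 60.4, 57.0, 71.7, 66.3 and 59.2 in IncPBF lungs 1 to 5, and 60.8, 60.4, 65.3, 67.4 and 60.2 in sham lungs 1 to 5. The groups overlapped throughout, with means of 62.9 ± 5.99 and 62.8 ± 3.31. The log2 fold change was -0.00 (SE 0.07), with a 95% interval from -0.15 to 0.15 and an adjusted p of 0.994. Relative to the mean log2 level of 18 genes of all lung epithelial cells, such as Epcam and Cdh1, the difference was also -0.00 (exact permutation p = 1, two-sided). This relative level was tested for each of the 10 factors, and its p-values are unadjusted. That mean itself was 3.86 ± 0.0646 in IncPBF lungs and 3.86 ± 0.121 in sham lungs on the log2 scale (exact permutation p = 1). An antisense gene, Gm26973, overlaps Nkx2-1 at a mean of 5.40 FPKM, and whether reads of the overlap were counted by strand is not given in the sources used here.

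Of the forkhead paralogs, Foxa2 fell and Foxa1 did not pass the test. Foxa2 (ENSMUSG00000037025, chr2:148042877-148046969, minus strand) was 11.2, 12.2, 11.8, 12.2 and 11.7 FPKM in IncPBF lungs, and 13.3, 13.4, 14.5, 13.7 and 12.6 in sham lungs. Every IncPBF lung was below every sham lung, though the gap between the nearest lungs was small. The log2 fold change of Foxa2 was -0.19 (SE 0.05, adjusted p = 0.0133), an IncPBF mean at 87.4% of the sham mean. Foxa1 (ENSMUSG00000035451, chr12:57540628-57546916, minus strand) was 8.78, 8.64, 8.82, 9.75 and 9.06 FPKM in IncPBF lungs, and 9.23, 8.33, 10.4, 9.14 and 7.42 in sham lungs. Its groups overlapped, and its log2 fold change was 0.02 (SE 0.08, 95% interval -0.16 to 0.21, adjusted p = 0.847). The log2 difference Foxa2 minus Foxa1 was 0.39 ± 0.07 in IncPBF lungs and 0.60 ± 0.11 in sham lungs, a change of -0.22, given as a description since the pair was chosen after its values were seen. Relative to the epithelial genes, Foxa2 differed by -0.19 without overlap (exact permutation p = 0.00794, the smallest that 5 against 5 lungs can give) and Foxa1 by 0.03 (exact permutation p = 0.683). With equal totals per lung, the Foxa2 change was -0.11 and did not pass the test (adjusted p = 0.175). Their relative Foxa3 was too low to be tested, at 0.0768 FPKM in IncPBF and 0.0215 in sham lungs.

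The 250 bases before the RefSeq start site (GRCm38.p6) are shown for Cebpa and Foxa2, which fell without overlap, and for Foxa1, the paralog of Foxa2 whose groups overlapped. The RefSeq start is that of the deposited gene for Foxa2 and Cebpa, and lies 805 bases inside the deposited gene for Foxa1. Capitals mark a match to a motif in either orientation.
Foxa2 promoter, chr2:148046970-148047219, minus strand: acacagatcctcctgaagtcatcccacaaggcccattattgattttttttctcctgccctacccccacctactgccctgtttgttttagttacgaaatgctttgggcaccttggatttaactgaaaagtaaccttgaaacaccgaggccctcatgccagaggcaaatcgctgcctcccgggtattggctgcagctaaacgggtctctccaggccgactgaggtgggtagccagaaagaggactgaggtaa
Foxa1 promoter, chr12:57546112-57546361, minus strand: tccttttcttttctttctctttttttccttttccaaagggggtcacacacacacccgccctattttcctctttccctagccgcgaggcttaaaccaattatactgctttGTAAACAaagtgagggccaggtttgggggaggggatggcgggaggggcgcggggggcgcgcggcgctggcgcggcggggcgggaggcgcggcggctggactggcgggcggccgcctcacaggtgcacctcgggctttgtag
Cebpa promoter, chr7:35119043-35119292, plus strand: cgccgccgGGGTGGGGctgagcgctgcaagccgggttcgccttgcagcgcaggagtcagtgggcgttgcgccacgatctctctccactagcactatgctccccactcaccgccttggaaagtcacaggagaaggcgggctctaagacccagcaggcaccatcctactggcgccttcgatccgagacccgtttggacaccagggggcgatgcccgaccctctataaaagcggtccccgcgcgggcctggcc
The search covered 9 short motifs on both strands. These were the NKX2-1 core CACTTGA, the FOXA core TGTTTAC, the GATA core AGATAA, the SOX core CATTGT and the ETS core CCGGAA. The others were the C/EBP word TTGCNNAA, the KLF core CCNCACCC, the STAT site TTCNNNGAA and the cAMP response element TGACGTCA. Among promoters of this length, the shares that hold each word are 2.68% for NKX2-1, 9.99% for GATA, 10.7% for SOX, 12.0% for ETS, 9.56% for C/EBP, 7.02% for STAT and 1.55% for the cAMP response element. The Foxa1 window holds the FOXA core on the reverse strand from -141 to -135, a word in 3.17% of the 32851 RefSeq promoters. The Cebpa window holds the KLF core on the reverse strand from -242 to -235, a word in 14.9% of promoters, and the Foxa2 window holds none of the 9 words. RefSeq promoters matched 6 of the 10 factors. The Etv5 window also held the FOXA core, the Sox2 window an ETS core and the C/EBP word, and the Nkx2-1 window no match. A match is a description of letters and not of binding.

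Both C/EBP factors fell without overlap between the groups, and Cebpd changed more than the other 3 factors that fell. Cebpd (ENSMUSG00000071637, chr16:15887286-15891031, plus strand, a single-exon gene) was 13.4, 11.2, 13.5, 13.8 and 11.7 FPKM in IncPBF lungs, and 28.9, 29.2, 22.6, 22.1 and 30.0 in sham lungs. All 5 IncPBF lungs lay far below the lowest sham lung. The mean fell from 26.6 ± 3.86 to 12.7 ± 1.19, which is 48.0% of the sham mean, with a log2 fold change of -1.05 (SE 0.10, adjusted p = 4.99e-05). Cebpa (ENSMUSG00000034957, chr7:35119293-35121928, plus strand, a single-exon gene) was 43.7, 38.4, 43.8, 37.7 and 48.0 FPKM in IncPBF lungs, and 52.6, 55.4, 50.2, 56.2 and 58.4 in sham lungs. The highest IncPBF lung stayed below the lowest sham lung. The log2 fold change of Cebpa was -0.37 (SE 0.07, adjusted p = 0.00306), an IncPBF mean at 77.5% of the sham mean. The log2 difference Cebpd minus Cebpa was -1.72 ± 0.21 in IncPBF and -1.05 ± 0.20 in sham lungs, a pair also chosen after its values were seen and given without a test. Relative to the epithelial genes, the difference was -1.05 for Cebpd (exact permutation p = 0.00794) and -0.37 for Cebpa (exact permutation p = 0.0238).

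Among the C/EBP relatives, Cebpg, which pairs with other C/EBP proteins, fell by 0.35 on the log2 scale (adjusted p = 0.00232), while Cebpb was 58.4 ± 9.61 FPKM in IncPBF and 61.3 ± 7.26 in sham lungs (adjusted p = 0.649). The gene Spidr overlaps Cebpd on the opposite strand at a mean of 2.06 FPKM and was itself called lower, and Gm45091 overlaps Cebpa at 0.981 FPKM, with the same limit on strand. Of 18 genes of glucocorticoid, interleukin-6 or acute stress signaling, signals that induce Cebpd, 10 fell and the other 8 did not pass the test. The median log2 fold change of the 18 was -0.46. With log2 Xist as a covariate, the median of the 18 was -0.50. Zbtb16, a glucocorticoid-induced zinc-finger factor, was 0.439 to 1.36 FPKM in IncPBF lungs and 26.5 to 41.4 in sham lungs (log2 fold change -5.28, adjusted p = 1.15e-06). Fkbp5, a chaperone that limits glucocorticoid receptor activity, fell by 2.63 on the log2 scale (adjusted p = 2.73e-06), and Tsc22d3, the glucocorticoid-induced leucine zipper, fell by 1.63 (adjusted p = 2.37e-05). Of 12 leukocyte genes, 1 rose (Itgam) and the other 11 did not pass the test, with a summed level of 368.85 to 588.01 FPKM in IncPBF and 422.25 to 513.99 in sham lungs. Most of that sum was a single gene, Lyz1, a lysozyme, at 303 to 511 FPKM in IncPBF and 346 to 439 in sham lungs. Another lysozyme, Lyz2, which was placed in the AT2 list, fell (log2 fold change -0.78, adjusted p = 0.000817). Of 10 fibroblast genes, 2 rose and 2 fell, among them Pdgfra, a growth factor receptor of alveolar fibroblasts (log2 fold change -1.36, adjusted p = 9.01e-05), and the summed fibroblast level was 1169 to 1356 FPKM in IncPBF and 1137 to 1378 in sham lungs. Of 12 endothelial genes, 7 fell and 1 rose, with a summed level of 1241 to 1339 and 1274 to 1631 FPKM. The part of these cells and signals in the Cebpa and Cebpd values was not tested.

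Gata6 and Klf5 both had lower means in IncPBF, with different results of the test. Gata6 (ENSMUSG00000005836, chr18:11052508-11085635, plus strand) was 8.38, 9.53, 9.17, 8.68 and 9.84 FPKM in IncPBF lungs, and 10.3, 11.3, 9.66, 11.2 and 10.6 in sham lungs. The groups overlapped only between IncPBF lung 5 and sham lung 3. The log2 fold change of Gata6 was -0.21 (SE 0.06, adjusted p = 0.0224). The call was lost, with an adjusted p of up to 0.0568, without IncPBF lung 1, IncPBF lung 4 or sham lung 2, each in turn. With equal totals per lung it was -0.14 (adjusted p = 0.0826), and relative to the epithelial genes -0.21 (exact permutation p = 0.0397). That exact permutation p rose to between 0.0556 and 0.0794 without IncPBF lung 1, 3 or 4 or sham lung 2, 4 or 5, each left out in turn. Its relative Gata5 rose, from 6.66 ± 1.04 to 13.9 ± 1.41 FPKM (log2 fold change 1.06, adjusted p = 9.22e-05), Gata3 fell by 0.35 on the log2 scale (adjusted p = 0.0497), and Gata4, at 0.197 and 0.170 FPKM, was not tested. Klf5 (ENSMUSG00000005148, chr14:99298691-99315036, plus strand) was 6.99, 6.93, 5.61, 7.35 and 7.18 FPKM in IncPBF lungs, and 9.23, 7.59, 7.56, 7.58 and 7.62 in sham lungs. The groups did not overlap, with sham lung 1 standing above the 4 other sham lungs, and the exact permutation p was 0.00794. In limma, however, Klf5 did not pass the adjusted threshold (log2 fold change -0.22, SE 0.09, 95% interval -0.40 to -0.03, adjusted p = 0.0740). The Klf5 difference relative to the epithelial genes was -0.22, with overlap (exact permutation p = 0.167). Klf4, a related factor, rose by a log2 fold change of 0.57 (adjusted p = 0.00965). In the same lungs the 6 tested genes of 9 mesothelial genes all fell, though fewer passed with log2 Xist as a covariate. Among the 6 was Krt19, the most abundant at 42.2 and 49.1 FPKM, which is also in the list of all epithelial cells. In addition, 6 of 9 smooth muscle genes rose, while none passed with log2 Xist as a covariate. Acta2 had the smallest adjusted p of the 6 (log2 fold change 1.57, adjusted p = 0.000783), and Actg2 the largest rise (1.65). The summed mesothelial level was 96.3 to 125 FPKM in IncPBF and 139 to 219 in sham lungs, and the summed smooth muscle level 346 to 650 and 139 to 275. Their part in the Gata6 and Klf5 values was not tested.

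Etv5 (ENSMUSG00000013089, chr16:22381309-22439719, minus strand) was 37.2, 35.7, 39.8, 31.2 and 45.6 FPKM in IncPBF lungs, and 38.8, 34.3, 30.8, 43.9 and 39.6 in sham lungs. The groups covered nearly the same range, and the log2 fold change was 0.01 (SE 0.11, 95% interval -0.23 to 0.26, adjusted p = 0.933). Set against the epithelial genes it was 0.02 (exact permutation p = 0.944). Its close relative Etv4, which is also induced by FGF signaling, was 3.10 to 5.25 FPKM in IncPBF lungs and 0.305 to 1.11 in sham lungs, without overlap. Etv4 rose by a log2 fold change of 2.47 (SE 0.25, adjusted p = 5.98e-05), and Etv1 by 0.37 (adjusted p = 0.00857). The log2 difference Etv4 minus Etv5 was -3.15 ± 0.39 in IncPBF and -5.60 ± 0.70 in sham lungs, a pair chosen after its values were seen and given without a test. Of 16 genes of FGF signaling, Etv4 and Etv1 among them, 7 rose and 3 fell, and fewer passed with log2 Xist as a covariate. Of the 7 that rose, Fgf9 (0.920 and 0.298 FPKM) passed the filter on low values only through the IncPBF lungs. The ligand Fgf18 rose from 13.6 ± 1.97 to 31.9 ± 4.72 FPKM (log2 fold change 1.22, adjusted p = 5.74e-05). The feedback inhibitors Spry1 (0.52) and Dusp6 (0.56) rose too, while Dusp4, another phosphatase, fell by 0.69 on the log2 scale (adjusted p = 0.00354). Il17rd (-0.42, adjusted p = 0.00568) and the ligand Fgf7 (-0.44, adjusted p = 0.0277) fell as well. Over the 16 genes the median log2 fold change was -0.00, and 8 of them had a negative value. The receptor Fgfr2, at a log2 fold change of -0.01, was also the gene whose profile over the 10 lungs was most like that of Etv5.

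**Figure D3:**
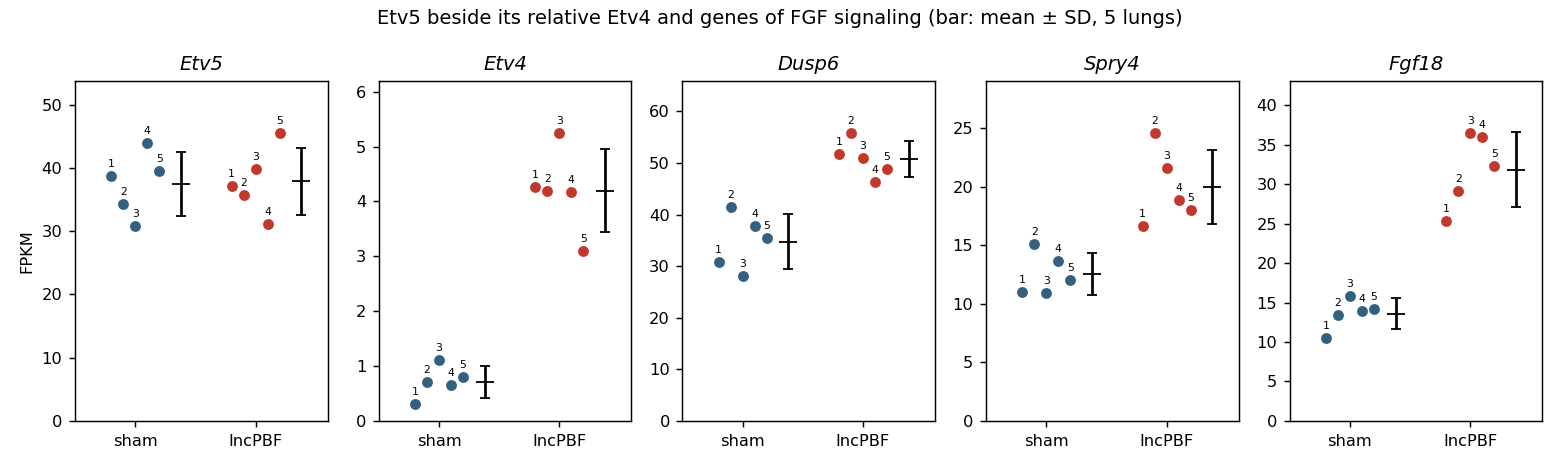
FPKM of Etv5, Etv4, Dusp6, Spry4 and Fgf18 in each lung, sham in blue and IncPBF in red, with the mean and SD of 5 lungs. Etv5 has mixed points around 37.5 and 37.9 FPKM, while the IncPBF points of the other 4 genes all lie above the sham points. Genes of FGF signaling that fell, such as Dusp4, are not shown.

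Sox2 (ENSMUSG00000074637, chr3:34650405-34652461, plus strand, a single-exon gene) was 2.31, 2.57, 1.71, 3.27 and 2.25 FPKM in IncPBF lungs, and 2.30, 1.73, 3.98, 1.65 and 0.0279 in sham lungs. The groups overlapped, and sham lung 5 held a single Sox2 fragment. The log2 fold change of 0.90 (SE 0.75, adjusted p = 0.386) became 0.06 without sham lung 5 (adjusted p = 0.882), where the sham mean was 2.42 ± 1.08 (n = 4) and the IncPBF mean 2.42 ± 0.567 (n = 5). The Sox2 difference was 0.90 relative to the epithelial genes too (exact permutation p = 0.373). Of the 13 airway genes tested, 10 were at their lowest of all lungs in sham lung 5, as Sox2 was. Foxj1, the ciliated cell factor, was 0.285 FPKM in sham lung 5 against 6.56 to 16.7 in sham lungs 1 to 4 and 7.84 to 16.0 in IncPBF lungs. Scgb1a1, the club cell secretory protein, was 128.5 FPKM in sham lung 5 against 5116 to 11743 in the other sham lungs. Sham lung 3 and IncPBF lung 4 were the highest of their groups for Sox2, Foxj1 and Scgb1a1 alike. Of 19 airway genes, 13 were tested and 1 fell, Aldh1a1, a retinal dehydrogenase (log2 fold change -1.52, adjusted p = 0.000369). Aldh1a1 did not share the low value, at 114 FPKM in sham lung 5 and 89.0 in sham lung 4. The gene most like Sox2 over the 10 lungs was Cfap206, a cilium gene, at a root-mean-square difference of 0.169 on the log2 scale.

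**Figure D4:**
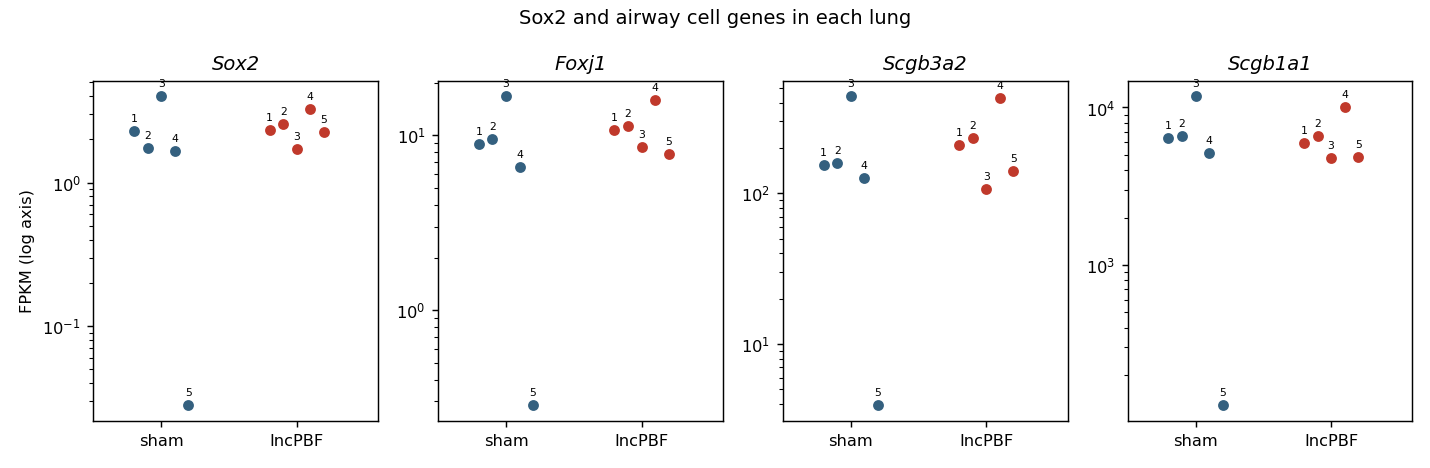
FPKM on a log axis of Sox2 and the airway cell genes Foxj1, Scgb3a2 and Scgb1a1 in each lung, sham in blue and IncPBF in red. Sham lung 5 lies far below the other 9 lungs in all 4 panels, and sham lung 3 and IncPBF lung 4 are the highest of their groups.

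Sox9 (ENSMUSG00000000567, chr11:112782224-112787760, plus strand) was 0.888, 0.942, 1.79, 0.729 and 1.32 FPKM in IncPBF lungs, and 0.431, 0.539, 0.450, 0.721 and 0.736 in sham lungs. Only IncPBF lung 4 lay within the sham range, by a narrow margin below sham lung 5. The values rest on 52 to 137 fragments per IncPBF lung and 32 to 57 per sham lung. Sox9 rose by a log2 fold change of 0.83 (SE 0.25, adjusted p = 0.0247), and its exact permutation p was 0.0159. Relative to the epithelial genes the difference was also 0.83 (exact permutation p = 0.0159). The call was lost, with an adjusted p of up to 0.0574, without IncPBF lung 3, IncPBF lung 5 or sham lung 1, each in turn. Quantile normalization and the fit with no filter lost it too. Over the other settings run, the log2 fold change of Sox9 ranged from 0.42, with a pseudocount of 1, to 1.02. Sox9 also marks cartilage, and of 14 cartilage genes, 3 were tested. Col9a2, a collagen of cartilage, was 0.655 to 1.47 FPKM in IncPBF lungs and 0.0557 to 0.270 in sham lungs. It passed the filter of 0.5 FPKM only through the group where it was high, so its test is not used. Sox5, a partner of SOX9 in cartilage, fell by 0.50 on the log2 scale. The summed cartilage level was 4.08 to 5.37 FPKM in IncPBF and 3.66 to 4.46 in sham lungs. The defining cartilage genes Col2a1 and Acan were untested at their low level, and both had lower means in IncPBF. Col2a1 was 0.133 FPKM in IncPBF and 0.154 in sham lungs, and Acan 0.0433 and 0.0953. The part of cartilage in the Sox9 values was not tested.

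The remaining epithelial factors and the genes of differentiated cells give the setting of these values. Of 19 genes related to the 10 factors by family, such as Etv4, Gata5 and Cebpg, 9 were tested, 4 rose and 2 fell. Of 42 other epithelial transcription factors, 35 were tested, 6 rose and 4 fell. Irx2, an Iroquois homeobox factor, rose from 17.0 ± 1.94 to 26.2 ± 2.41 FPKM (adjusted p = 0.000429), Id2, a marker of distal lung tips, rose from 31.6 ± 3.40 to 42.9 ± 1.41 (adjusted p = 0.000832), and Mycn, a proto-oncogene, rose from 2.05 ± 0.548 to 3.83 ± 0.394 (adjusted p = 0.00189). Hopx, a homeodomain protein of alveolar type 1 (AT1) cells, fell from 219 ± 19.6 to 155 ± 15.9 (adjusted p = 0.00159). Of 20 AT1 genes, Hopx among them, 17 fell and the other 3 did not pass the test, with a median log2 fold change of -0.47. Of 19 AT2 and surfactant genes, 11 fell and 1 rose, with a median of -0.33. With log2 Xist as a covariate, a fit that rests mostly on IncPBF lung 1, the medians were -0.40 for both lists. With IncPBF lung 1 alone against the sham lungs the medians were -0.43 and -0.41, and the calls of that fit, whose single lung is assumed to vary like the others, are not read here. IncPBF lung 1 itself lay below every sham lung for 17 of the 20 AT1 genes and 14 of the 19 AT2 genes, and above every sham lung for 2 AT2 genes. These counts describe 1 lung, and the share over all genes tested is not given here. Sftpb, a surfactant protein, fell from 1250 ± 49.0 to 804 ± 71.2 FPKM (log2 fold change -0.64, adjusted p = 0.000284). Sftpc, the most abundant gene of the AT2 list, did not pass the test, at -0.21 (adjusted p = 0.358). Of the 18 genes of all epithelial cells, 1 rose and 2 fell, with a median of -0.07.

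**Figure D5:**
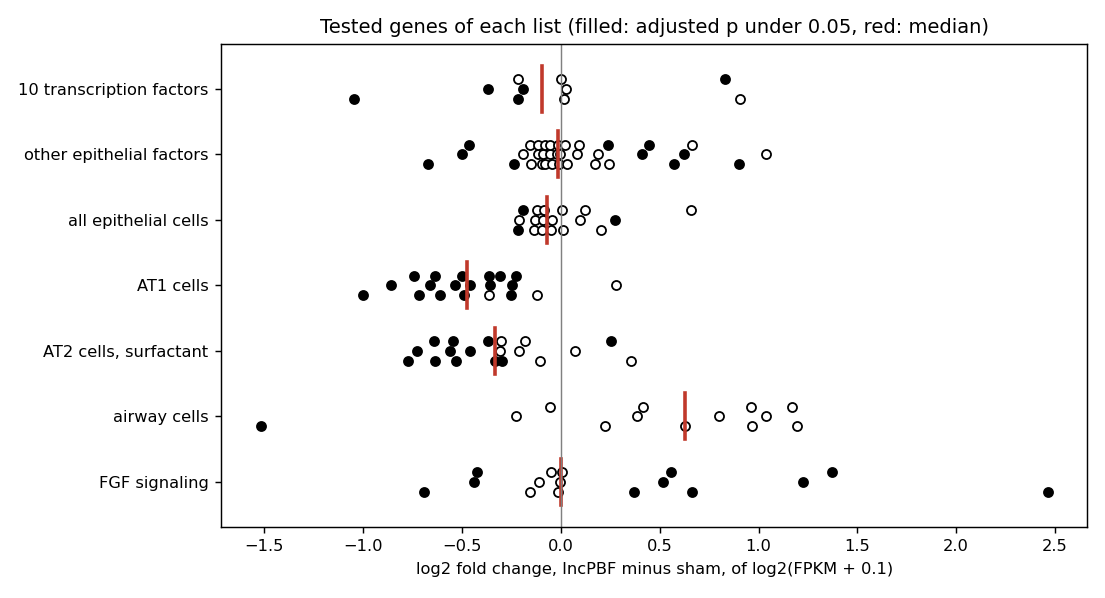
Log2 fold change, IncPBF minus sham, of each tested gene in 7 lists, on the log2(FPKM + 0.1) scale, with filled points for genes past an adjusted p of 0.05 and a red bar at each list's median. The AT1 and AT2 medians lie at -0.47 and -0.33, those of the 10 factors and of all epithelial cells at -0.10 and -0.07.

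For each factor, the gene with the most similar profile was taken as the smallest root-mean-square difference of centred log2 values over the 10 lungs. These were Mief2 for Nkx2-1 (0.0436), Mrpl24 for Foxa1 (0.0556), Crb3 for Foxa2 (0.0432), Flot1 for Gata6 (0.0401) and R3hcc1l for Klf5 (0.0565). For Cebpa it was Slc15a4 (0.0695), and for Cebpd it was Tns2 (0.0934), closely followed by Lims2 (0.0939). For Sox9 it was Cd200r1 (0.213), beside a spread of Sox9 itself of 0.548. These are descriptions over lungs that share the group difference, and the low distances of Nkx2-1, Foxa1, Foxa2, Gata6 and Klf5 lie beside a spread of these genes of only 0.0974 to 0.166.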

How the data were processed

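RNA from 5 IncPBF and 5 sham lungs was sequenced from NEBNext Ultra libraries. The submitters' processing notes name Bowtie 0.12.2; the counting tool and its strand setting are not given in the sources used here. Per the deposited table, the authors gave FPKM for 54532 genes, with gene coordinates that match GRCm38. Multiplied by gene length, the values were whole multiples of 1 fragment within 0.1 in every lung, which gave the fragments per lung. The IncPBF columns carry another abbreviation than the sample titles, so they were assigned to the group and lung numbers are those of the columns.

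All genes averaging 0.5 FPKM or more over the 10 lungs entered limma 3.58.1 in R 4.3.3 (lmFit, eBayes with trend) on log2(FPKM + 0.1), with Benjamini-Hochberg adjustment over all 15388 genes tested. A fold change on this scale understates that of low genes. Single values were tested with exact two-sided permutation over all 252 assignments of 5 of 10 lungs. The labels do not say that the lungs came from separate litters, so p-values measure the spread between these lungs. Named genes were the 10 factors and, from each other list, up to 4 genes with the smallest adjusted p, plus the most abundant gene or genes needed to describe a list; for each factor the most similar gene was named. The members and lists were chosen with earlier results of these data known. limma was tested on simulated data with known fold changes. It recovered 20.31% of genes at an absolute log2 fold change of 0.5, 86.15% at 1 and 96.88% at 1.5, with 5 false calls among 136. The simulation held far fewer changed genes than the data, with 136 calls against 4970. Its shares therefore do not bound the change of a gene that did not pass here. The 95% intervals give that range, from -0.15 to 0.15 for Nkx2-1 and from -0.74 to 2.55 for Sox2. Alternatives were another pseudocount, filter, scaling and variance model, limma-voom on the recovered fragments, covariates, and leaving out each lung.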

Additional observations from a re-analysis of the deposited data

Results flagged for a closer look

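On the log2(FPKM + 0.1) scale, the gap in each group of 5 lungs between the most extreme lung and its nearest neighbour, as a share of the group's range, was set against Dixon's 95% critical value for 5 samples. Of the 20 groups tested (10 factors, 2 groups), 3 exceeded it; chance passes about 1 in 20 groups. Sox2 in sham lung 5 was lowest with a share of 0.756. Klf5 in IncPBF lung 3 was lowest with a share of 0.778, and Klf5 in sham lung 1 was highest with a share of 0.96. On the FPKM scale these shares were 0.411 for Sox2, which no longer exceeds the critical value, and 0.754 and 0.964 for Klf5, which do.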

How the results depend on the processing

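Under equal totals per lung the log2 fold changes were 0.079 for Nkx2-1, -0.11 for Foxa2 and -0.14 for Gata6, and under limma-voom 0.080, -0.12 (adjusted p = 0.215) and -0.14 (adjusted p = 0.0892), so that 2 factors in both fits stayed past the threshold as lower. Over all genes, equal totals per lung gave 3559 higher and 1782 lower, and limma-voom 3653 and 1863, against 2480 and 2490, and the pan-epithelial list then held 1 call in each. Quantile normalization gave 0.015 for Nkx2-1 and 0.75 for Sox9 (adjusted p = 0.0503), and no filter gave 0.83 for Sox9 (adjusted p = 0.0516); both left 0 higher factors, as did a mean FPKM of at least 1 (0), where Sox9 was not tested. With no filter, with the pan-epithelial covariate, or with the replicate block, 2 airway genes passed.

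With log2 Xist as a covariate, the values were -0.030 for Foxa1, -0.27 for Foxa2, -0.32 for Gata6, 0.59 for Sox9 and -0.31 for Cebpa. That fit rests almost wholly on IncPBF lung 1 against the sham lungs, so its calls, which were fewer, are not listed. With only the 1 IncPBF lung without Xist against the sham lungs, the values were -0.011 for Foxa1, -0.27 for Foxa2, -0.33 for Gata6 and 0.58 for Sox9. They were -0.0019 for Etv5, -0.32 for Cebpa and -0.97 for Cebpd. The calls of that fit, whose single lung is assumed to vary like the others, are not read. The pan-epithelial covariate gave 5 calls in the pan-epithelial list itself. Relative to the epithelial genes, Nkx2-1 was 0.0082 with a pseudocount of 1, and with the median gene Foxa1 was -0.024, Etv5 -0.034 and Klf5 -0.27 (exact permutation p = 0.0476). The cause of these moves was not tested.

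Leaving out 1 lung gave -0.049 to 0.034 for Nkx2-1, -0.038 to 0.083 for Foxa1, -0.22 to -0.17 for Foxa2, -0.25 to -0.19 for Gata6, 0.06 to 1.31 for Sox2, 0.66 to 0.96 for Sox9, -0.054 to 0.082 for Etv5, -0.42 to -0.33 for Cebpa, -1.11 to -0.999 for Cebpd and -0.24 to -0.15 for Klf5. Lower factors numbered 3 to 4, higher factors 0 to 1, other epithelial factors 10 to 13, AT2 8 to 13, AT1 13 to 18, FGF 9 to 10, glucocorticoid and stress 9 to 11, airway 1 to 2, pan-epithelial 2 to 3, family relatives 5 to 7, mesothelial 5 to 6 and smooth muscle 6 to 6. Relative to the epithelial genes the ranges were -0.028 to 0.035 for Nkx2-1, -0.0092 to 0.055 for Foxa1, -0.21 to -0.17 for Foxa2, -0.28 to -0.16 for Gata6, 0.11 to 1.28 for Sox2, 0.68 to 0.97 for Sox9, -0.081 to 0.087 for Etv5, -0.43 to -0.29 for Cebpa, -1.13 to -0.95 for Cebpd and -0.26 to -0.13 for Klf5. The lungs share only a number: the correlations of same-numbered lungs ranged from -0.0675 to 0.0854. With the replicate block, 4872 genes passed against 4970, the factors stayed at 4 lower and 1 higher, and Sox9 had an adjusted p of 0.0469. Sox9 rests on 32 to 137 fragments per lung, which limits its precision.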
